A study of Homo sapiens with 14 samples.

Results

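The mRNAs of 10 secreted chemokines, CXCL1, CXCL2, CXCL3, CXCL5, CXCL6, CXCL8, CCL2, CCL5, CCL20 and CX3CL1, were followed in 14 RNA-sequencing libraries of the cell lines A549 and SUM159. The genes were chosen by symbol, with earlier results of these data known. All 10 were found among the 60683 gene identifiers counted in each library. A549 is a lung cancer line and SUM159 a triple-negative breast cancer line, both analysed as bulk RNA from whole cultures. A549 cultures were untreated, received 2 µM palbociclib, 0.5 µM indisulam or both together over 10 days, or received 0.5 µM PF-06873600 over 7 days. SUM159 cultures were untreated or received the same dose of PF-06873600 over 7 days. Each of the 7 groups held 2 libraries, called technical duplicates by the submitters, so that every p-value below measures only the spread between these libraries. Palbociclib inhibits CDK4 and CDK6, indisulam leads to degradation of the splicing factor RBM39, and PF-06873600 inhibits CDK2, CDK4 and CDK6. The study asked whether these treatments drive cancer cells into senescence, a lasting arrest in which cells often secrete cytokines and chemokines. When the untreated cultures were harvested is not given in the sources used here, so that time in culture and treatment cannot be told apart.

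Chemokines are small proteins that attract leukocytes by binding G protein-coupled receptors. CXCL1, CXCL2, CXCL3, CXCL5, CXCL6 and CXCL8 bind CXCR1 or CXCR2 and attract neutrophils, CCL2 attracts monocytes through CCR2, CCL5 and CCL20 attract lymphocytes and other cells through receptors that include CCR1 and CCR6, and CX3CL1 is a membrane-bound ligand of CX3CR1 that proteases release. The genes are classical targets of NF-κB, several also of AP-1, and CXCL1, CXCL8 and CCL2 are known components of the senescence-associated secretory phenotype. Only mRNA was measured here, and no value below is a secreted amount.

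The 6 CXC chemokine genes lie together within 358.7 kb of chromosome 4 (GRCh38, 73740519 to 74099196) in the order CXCL8, CXCL6, CXCL1, CXCL5, CXCL3, CXCL2. CCL2 lies on chromosome 17 (34255274 to 34257208), as does CCL5 (35871491 to 35880793). CCL20 is on chromosome 2 (227805739 to 227817564) and CX3CL1 on chromosome 16 (57372477 to 57385044). The RefSeq promoter table for GRCh38.p14 matched 7 of the 10 genes, all but CCL2, CCL5 and CX3CL1. The stretches from 140 to 11 bases before the RefSeq start site are shown because all 6 CXC genes hold the same 9 letters, the κB core GGAATTTCC, in capitals. Capitals also mark TGACTCA, an AP-1 site, and TATAAA in CXCL8, and TATAAA and a match on the opposite strand to the NF-κB consensus in CCL20.
CXCL1, chr4:73869253-73869382, plus strand: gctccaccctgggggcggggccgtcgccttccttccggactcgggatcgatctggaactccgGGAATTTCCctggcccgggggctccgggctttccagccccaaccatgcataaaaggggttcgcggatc
CXCL2, chr4:74099206-74099335, minus strand: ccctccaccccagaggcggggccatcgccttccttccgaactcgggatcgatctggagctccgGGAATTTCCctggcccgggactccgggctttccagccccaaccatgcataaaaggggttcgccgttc
CXCL3, chr4:74038700-74038829, minus strand: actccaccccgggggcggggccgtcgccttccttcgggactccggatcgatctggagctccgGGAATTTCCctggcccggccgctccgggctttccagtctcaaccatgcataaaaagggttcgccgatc
CXCL5, chr4:73998688-73998817, minus strand: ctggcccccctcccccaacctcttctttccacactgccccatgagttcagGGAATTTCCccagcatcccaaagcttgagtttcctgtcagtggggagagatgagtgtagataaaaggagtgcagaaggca
CXCL6, chr4:73836538-73836667, plus strand: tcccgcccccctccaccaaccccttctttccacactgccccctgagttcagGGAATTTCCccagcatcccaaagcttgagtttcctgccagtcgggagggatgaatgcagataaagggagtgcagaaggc
CXCL8, chr4:73740429-73740558, plus strand: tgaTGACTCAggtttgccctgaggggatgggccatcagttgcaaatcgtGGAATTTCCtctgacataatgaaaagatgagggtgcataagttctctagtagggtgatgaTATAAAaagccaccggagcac
CCL20, chr2:227813702-227813831, plus strand: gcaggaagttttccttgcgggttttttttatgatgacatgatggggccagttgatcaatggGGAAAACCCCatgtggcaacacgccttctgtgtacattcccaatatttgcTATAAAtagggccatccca
The κB core began 78 bases before the start site in CXCL1 and CXCL3, 77 in CXCL2, 90 in CXCL5, 89 in CXCL6 and 91 in CXCL8. On both strands, 162 of 35116 RefSeq promoters of the same length (0.461%) held it anywhere, and 28 (0.0797%) held it starting 100 to 70 bases before the start site. The wider NF-κB consensus, which overlaps the core in 5 of these genes, was found in 11.3% of promoters, TGACTCA in 4.95% on both strands, and TATAAA in 7.33% on the sense strand. The motifs were chosen after the sequences were read, and the 6 CXC promoters are not independent. The printed stretches of CXCL1, CXCL2 and CXCL3 are 88.6% to 91.5% identical to each other and those of CXCL5 and CXCL6 90.1%, whereas CXCL8 is 44.6% to 51.0% identical to the other 5. These matches describe letters and show no binding.

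Total counts on genes ran from 13060374 to 21149256 per library, and values below are CPM, the counts of a gene per 1000000 of that total. A level of 3 counts was chosen as a floor and stands in for 0 in the bounds below. It was 0.142 to 0.23 CPM per library, and this limit covers counting error only. The lines were checked against their markers. KRT8 and KRT18 were at 2130 to 5660 and 2520 to 5450 CPM in the A549 group means against 417 and 309 CPM in untreated SUM159. KRT7 went the other way between untreated lines, at 982 CPM in A549 and 1880 CPM in SUM159 (log2 difference 0.94, edgeR adjusted p = 1.38e-10). CDKN2A, deleted in A549, was at 0 in every A549 group, but was near 0 in SUM159 too, at 0.122 and 0.0236 CPM. VIM was at 4160 CPM in untreated SUM159 against 665 to 1770 CPM in the A549 group means. CD44 was at 930 CPM in untreated SUM159 and 629 to 1250 CPM in A549, and PGR at 0 and at most 0.0676 CPM. CDKN2A, CD44 and PGR therefore did not separate the lines. Of 7 leukocyte markers, CD3E had no count in any of the 14 libraries, but others were present. PTPRC had group means of 9.62 and 19.1 CPM in SUM159, CD14 of 4.55 to 11.6 and LYZ of 2.39 to 4.55 CPM in A549, and ITGAM of up to 5.87 CPM.

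**Figure D1:**
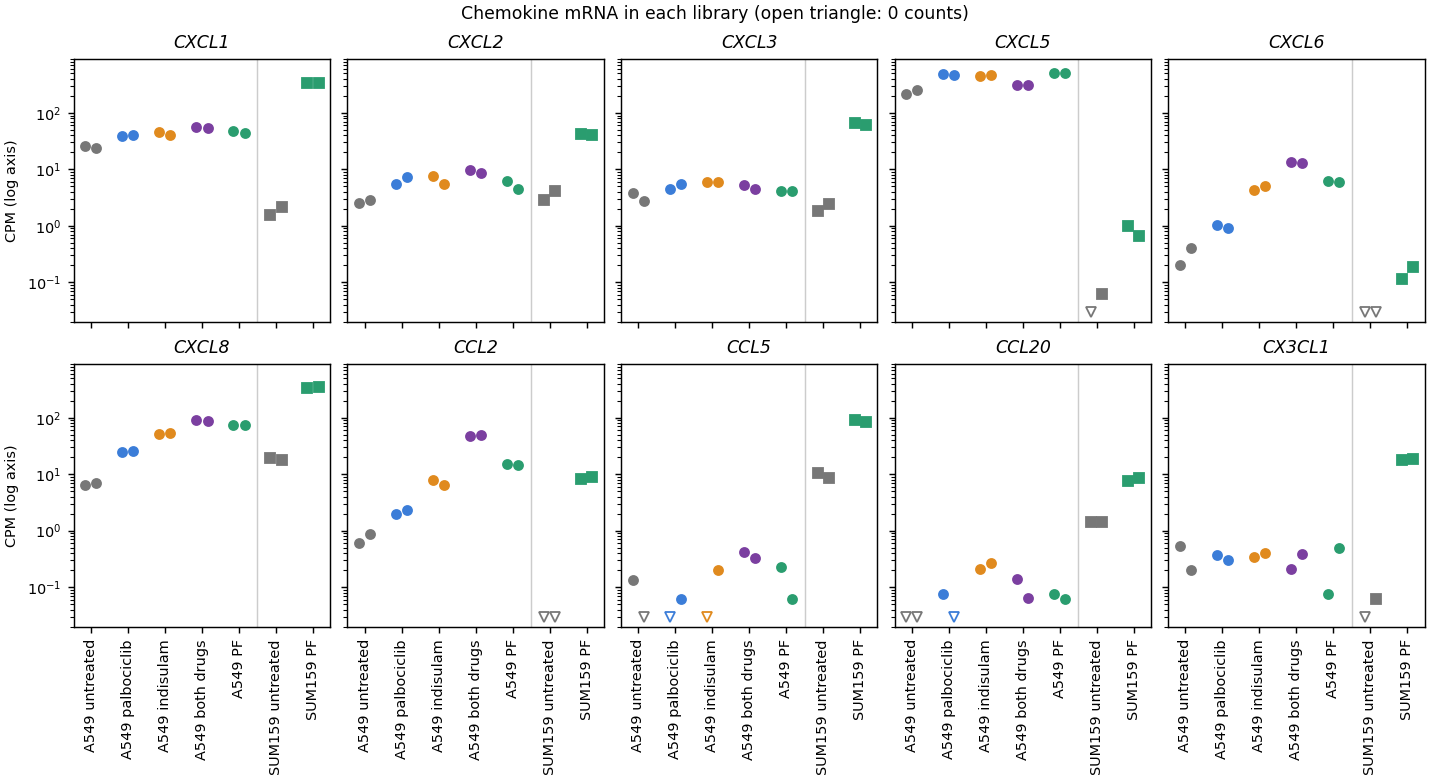
CPM of each chemokine on a log axis in each of the 14 libraries, with 1 point per library, circles for A549 and squares for SUM159; open triangles at the bottom mark libraries with 0 counts. PF stands for PF-06873600. CXCL8 and CCL2 stand higher in every treated A549 library than in the untreated ones, and all 4 genes CXCL1, CXCL2, CXCL3 and CXCL8 stand higher in treated than in untreated SUM159.

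The untreated lines differed in which chemokine mRNAs they held. In bulk RNA, a larger share of cells holding a message and more of it per cell cannot be told apart. In A549, CXCL5 had the highest level, at 215 and 251 CPM, while in SUM159 it had 0 and 1 counts. This is a ratio of 7590 with a 95% counting interval of 1360 to 300000. CXCL1 was also higher in A549, at 25.8 and 23.8 CPM against 1.57 and 2.13 CPM, a log2 difference of -3.74 ± 0.13 (SE, SUM159 minus A549, adjusted p = 3.42e-15 in the edgeR quasi-likelihood test). CXCL8 went the other way, with 6.32 and 7.00 CPM in A549 and 19.7 and 18.2 CPM in SUM159 (log2 difference 1.51 ± 0.10, edgeR adjusted p = 4.13e-11). CCL5 was almost confined to SUM159, with 173 and 138 counts there (10.4 and 8.64 CPM) and 2 and 0 counts in A549, a ratio of 142 with a counting interval of 39.0 to 1180. CCL20 had 24 and 23 counts in SUM159 and none in untreated A549, at least 7.15-fold higher against 3 counts per library. CCL2 had 9 and 13 counts in A549 and none in SUM159, at least 4.01-fold lower in SUM159. CXCL6 had 3 and 6 counts in A549 and none in SUM159, and CX3CL1 had 8 and 3 counts in A549 and 0 and 1 in SUM159. CXCL2 lay at 2.52 and 2.87 CPM in A549 and 2.83 and 4.07 CPM in SUM159, a log2 difference of 0.35 ± 0.26 that did not pass the test (edgeR adjusted p = 0.213). CXCL3 was lower in SUM159 by a log2 difference of -0.64 ± 0.22 (edgeR adjusted p = 0.0135, 0.0031 to 0.241 over the alternatives), a call that was lost without A549 untreated replicate 1 (-0.37) or SUM159 untreated replicate 1 (-0.43). Of the 10 members, 3 were called higher and 6 lower in SUM159, where 41.9% of 17279 genes tested were called higher and 36.8% lower. The calls of CCL20, CCL5, CXCL5, CXCL6, CCL2 and CX3CL1 each rest on a line with 3 counts or fewer in each library.

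Levels of different genes were set side by side per kilobase of annotated exon, with the exons of all transcripts of a gene merged. For CXCL3 and CCL2 the merged exons were 1 block over the whole gene, of 2219 and 1935 bases. The order of genes therefore depends on the lengths used. CXCL5 led in untreated A549 at 88.1 and 103 CPM per kb. It was followed by CXCL1 at 19.0 and 17.5, CXCL8 at 2.44 and 2.71, CXCL2 at 1.80 and 2.05 and CXCL3 at 1.75 and 1.23 CPM per kb. CXCL2 and CXCL3 did not overlap, but their levels are uncertain, since 10.2% of the 65-base stretches in CXCL2 exons and 5.29% of those in CXCL3 exons recur in a neighbouring CXC gene. In untreated SUM159, CXCL8 led at 7.62 and 7.02 CPM per kb, and CCL5 overlapped it at 7.65 and 6.34 CPM per kb. In CCL5, 22.3% of such stretches recur elsewhere in the genome, and CCL5 and CXCL5 each overlap an annotated antisense gene, whose reads cannot be told apart here because the strand setting of the counting is not given in the sources used here. CXCL6 overlaps the pseudogene PPBPP1 on the same strand.

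Palbociclib alone raised most of the chemokines that A549 cells expressed. CXCL8 went from 6.32 and 7.00 CPM to 24.9 and 25.8 CPM, a 3.8-fold increase (log2 1.93 ± 0.10 SE, edgeR adjusted p = 2.73e-08). CXCL5 rose from 215 and 251 to 483 and 479 CPM (log2 1.05 ± 0.07, edgeR adjusted p = 1.6e-07). CXCL1 rose from 25.8 and 23.8 to 39.6 and 41.4 CPM, or 1.63-fold. None of these groups overlapped. CXCL2 rose from 2.52 and 2.87 to 5.57 and 7.38 CPM, or 2.42-fold. CCL2 rose from 0.612 and 0.867 to 2.00 and 2.32 CPM, or 2.92-fold, on 9 and 13 counts before and 27 and 38 after. CXCL6 rose from 3 and 6 counts to 14 and 15 (log2 1.66 ± 0.42, edgeR adjusted p = 0.0151, 0.013 to 0.111 over the alternatives). That call was lost without untreated replicate 1 (log2 1.26), palbociclib replicate 1 (1.57) or palbociclib replicate 2 (1.75), and with only the compared groups in the model (adjusted p = 0.0839). CXCL3 was at 3.87 and 2.73 CPM without and 4.45 and 5.43 CPM with palbociclib and did not pass (edgeR adjusted p = 0.0621), although it did without untreated replicate 1 (log2 0.86, adjusted p = 0.0164, 0.0164 to 0.353 over the alternatives). CCL5, CCL20 and CX3CL1 did not pass the filter on low counts in A549. Of the other 7 members, 6 were called higher and none lower, while 8.3% of the 15780 genes tested were called higher and 7.4% lower. Among these 7, CXCL6 and CCL2 passed the filter through treated groups. This favours a call of higher for them in each A549 comparison with untreated cells.

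Indisulam raised all 7 members that were tested. CXCL8 reached 52.0 and 54.3 CPM, 7.97-fold over untreated cells (log2 2.99 ± 0.09, edgeR adjusted p = 1.87e-11). CCL2 reached 7.74 and 6.54 CPM, or 9.53-fold (log2 3.25 ± 0.22, edgeR adjusted p = 2.66e-08). CXCL6, which binds both CXCR1 and CXCR2, reached 4.35 and 5.09 CPM from 0.204 and 0.400 CPM, or 15.2-fold (log2 3.93 ± 0.30, edgeR adjusted p = 1.04e-07). CXCL5 reached 451 and 462 CPM, or 1.96-fold, and CXCL1 45.1 and 40.6 CPM, or 1.73-fold. CXCL2 was at 7.53 and 5.42 CPM, or 2.39-fold, and CXCL3 at 6.01 and 6.08 CPM, or 1.83-fold. Of all genes, 28.0% were called higher and 17.5% lower. This balance depended on the scaling, since 61.6% of the called genes were higher under total-count scaling but 50.4% under TMM scaling, and all 7 members were called higher under both. The 7 include CXCL6 and CCL2, which passed the filter through treated groups.

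With both drugs together, CCL2, CXCL6, CXCL8, CXCL1 and CXCL2 were highest and CXCL5 was lower than with either drug. CCL2 stood at 48.2 and 50.01 CPM, 22.5-fold over palbociclib and 6.88-fold over indisulam. CXCL6 stood at 13.8 and 13.1 CPM, 43.1-fold over untreated cells (log2 5.43 ± 0.25, edgeR adjusted p = 1.02e-10), 13.7-fold over palbociclib and 2.83-fold over indisulam (edgeR adjusted p = 1.43e-06). CXCL8 stood at 90.3 and 86.6 CPM, 13.3-fold over untreated cells, 3.49-fold over palbociclib and 1.66-fold over indisulam (log2 0.73 ± 0.07, edgeR adjusted p = 5.84e-07). For these 3 genes, and for CXCL1 and CXCL2, each combination library lay above every library of the other 3 groups. CXCL1, at 55.7 and 55.2 CPM, was 2.23-fold over untreated cells and 1.29-fold over indisulam (edgeR adjusted p = 0.0012). CXCL5, at 308 and 318 CPM, was still 1.34-fold over untreated cells, but fell by 0.62 ± 0.07 against palbociclib and by 0.54 ± 0.07 against indisulam on the log2 scale (edgeR adjusted p = 1.45e-06 and 1.07e-05). Both combination libraries lay below all 4 single-drug libraries and above both untreated ones.

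CXCL2 and CXCL3 gave less certain results. CXCL2 was at 9.93 and 8.75 CPM with both drugs, 3.46-fold over untreated cells. It passed against palbociclib (log2 0.51 ± 0.19, edgeR adjusted p = 0.0316, 0.00764 to 0.214 over the alternatives), but not with TMM factors, with DESeq2, or without palbociclib replicate 1 (log2 0.34) or combination replicate 1 (0.42) or 2 (0.61). Against indisulam (log2 0.53 ± 0.19, edgeR adjusted p = 0.0363, 0.00714 to 0.305 over the alternatives) the call was lost with DESeq2 and without indisulam replicate 2 (log2 0.31) or combination replicate 1 (0.44) or 2 (0.62). CXCL3 was at 5.25 and 4.44 CPM and passed against untreated cells (log2 0.55 ± 0.20, edgeR adjusted p = 0.0275, 0.00663 to 0.234 over the alternatives), but not with TMM factors, DESeq2 or the compared groups alone, nor without untreated replicate 2 (log2 0.32) or combination replicate 1 (0.43). It passed in neither comparison with a single drug (edgeR adjusted p = 0.864 against palbociclib and 0.168 against indisulam). Against untreated cells, 7 of 7 tested members were called higher, beside 35.1% of all genes higher and 30.0% lower. The 7 include CXCL6 and CCL2, which passed the filter through treated groups, so that a call of higher was favoured for them. Against palbociclib, 5 members were called higher and 1 lower, beside 33.5% and 26.9% of all genes. Against indisulam, too, 5 were called higher and 1 lower, beside 22.0% and 23.9% of all genes.

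CCL5, CCL20 and CX3CL1 remained near the limit of detection in A549. CCL5 had 6 and 5 counts with both drugs, where untreated libraries had 2 and 0, a ratio of 5.51 with a 95% counting interval of 1.2 to 51.2. CCL20 had 0 to 4 counts and CX3CL1 1 to 8 counts in each of the 10 A549 libraries. The groups of CX3CL1 overlapped throughout their order from PF-06873600, the lowest mean, to untreated cells, the highest.

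**Figure D2:**
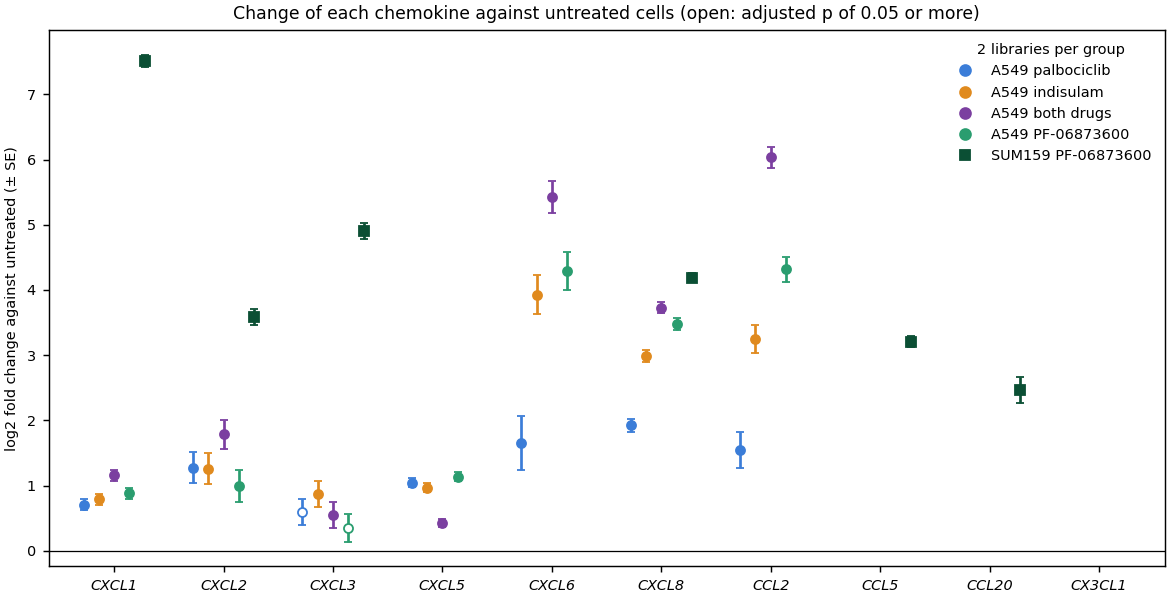
Log2 fold change of each chemokine against untreated cells of the same line, with the standard error, in 4 A549 comparisons (circles) and 1 SUM159 comparison (squares); open symbols did not pass the test. Members with a compared group at or under 3 counts per library have no point, and the SUM159 value of CXCL1, 7.51, is the highest shown.

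The effect of both drugs was then set against the sum of both single-drug effects, each as a log2 fold change. CCL2 was the 1 member whose combined effect exceeded the sum. Its single effects of 1.54 and 3.25 sum to 4.80, and the combination gave 6.04, a difference of 1.24 ± 0.34 (edgeR interaction term, adjusted p = 0.0149, 0.0125 to 0.201 over the alternatives). The difference rests on the 9 and 13 counts of CCL2 in untreated cells, and without untreated replicate 2 it was 0.97 and no longer passed. For CXCL8 the combination gave 3.73 where the single effects sum to 4.92, a difference of -1.19 ± 0.12 (edgeR adjusted p = 5.3e-06). CXCL5 fell furthest short, with 0.43 against a sum of 2.02 (difference -1.59 ± 0.09, edgeR adjusted p = 2.8e-08). CXCL8 and CXCL5 kept their calls in all 16 alternatives. CXCL6 was at 5.43 against a sum of 5.58, a difference of -0.15 ± 0.41 that did not pass (edgeR adjusted p = 0.855).

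The shortfalls of CXCL3 and CXCL1 were less certain. CXCL3 gave -0.91 ± 0.27 (edgeR adjusted p = 0.0236, 0.0052 to 0.156 over the alternatives). The call of CXCL3 was lost without untreated replicate 2 (-0.68), palbociclib replicate 2 (-0.75), indisulam replicate 1 (-0.92) or 2 (-0.91), or combination replicate 2 (-0.79), and with DESeq2 (-0.88). CXCL1 gave -0.34 ± 0.11 (edgeR adjusted p = 0.0429, 0.0172 to 0.201 over the alternatives). The call of CXCL1 was lost in 11 of 16 alternatives, among them those without untreated replicate 2 (-0.28), palbociclib replicate 1 (-0.37) or 2 (-0.30), indisulam replicate 1 (-0.26), combination replicate 1 (-0.34) or 2 (-0.33), or either PF-06873600 replicate (both -0.34), and with DESeq2 (-0.31), no filter or only the compared groups (both -0.34). CXCL2, at -0.75 ± 0.31, did not pass (edgeR adjusted p = 0.0933, 0.0415 to 0.332 over the alternatives), although it did without indisulam replicate 2 (-0.97) and with no filter on low counts (-0.75). Beyond the sum, 1 of 7 tested members was called higher and 4 lower, against 10.7% and 14.5% of all genes.

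**Figure D3:**
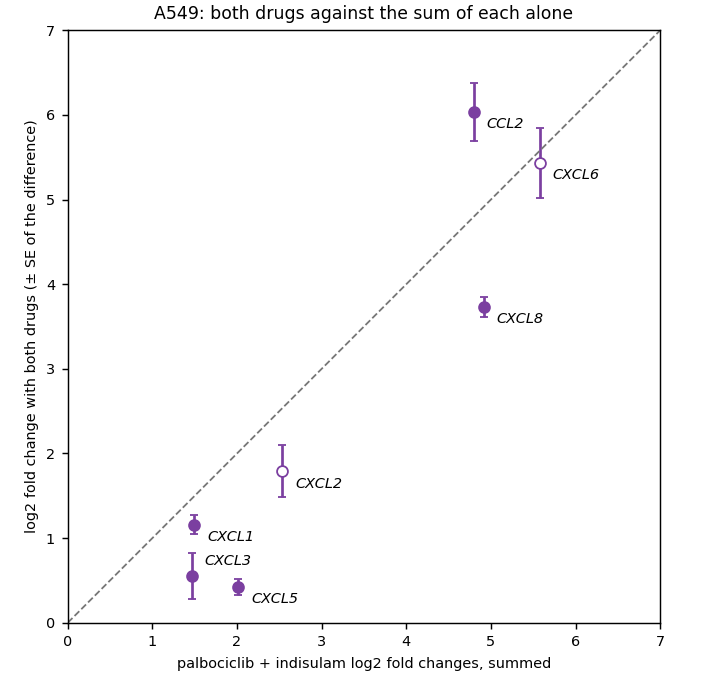
Log2 fold change of 7 chemokines in A549 with both drugs (vertical) against the sum of the log2 fold changes with palbociclib and with indisulam alone (horizontal); the dashed line marks equality, bars are the standard error of the difference and open circles did not pass the test. CCL2 lies above the line by 1.24, and CXCL8 and CXCL5 lie below it by more than 1.

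PF-06873600 over 7 days gave A549 a chemokine profile with high CXCL5, CXCL8, CXCL1 and CCL2. CXCL5 stood at 516 and 509 CPM, above every library of the other 4 A549 groups and 2.2-fold over untreated cells (log2 1.14 ± 0.07, edgeR adjusted p = 3.19e-09). CXCL8 stood at 73.1 and 75.7 CPM, or 11.2-fold (log2 3.48 ± 0.09, edgeR adjusted p = 9.51e-13). CCL2 stood at 15.1 and 14.8 CPM, or 19.9-fold (log2 4.32 ± 0.19, edgeR adjusted p = 1.5e-10), and CXCL6 at 6.13 and 6.06 CPM, or 19.6-fold. CXCL1 reached 47.3 and 44.3 CPM, or 1.84-fold. CXCL2 reached 6.28 and 4.58 CPM, or 1.99-fold. CXCL3, at 4.21 CPM and 4.20 CPM, did not pass (log2 0.35 ± 0.21, edgeR adjusted p = 0.166), although it did without untreated replicate 1 (log2 0.62, adjusted p = 0.0428, 0.0428 to 0.692 over the alternatives). Of 7 tested members, 6 were called higher and none lower, against 28.5% and 27.8% of all genes. CXCL6 and CCL2, which passed the filter through treated groups, are among these 6. Dose and time differ from those of palbociclib and indisulam, and no test was made between PF-06873600 and these drugs.

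Across the 5 A549 groups, CXCL8, CXCL6 and CCL2 kept the same order of mean levels, from untreated through palbociclib, indisulam and PF-06873600 to both drugs, and no neighbours in that order overlapped. CXCL1 had this order too, but indisulam overlapped palbociclib on one side and PF-06873600 on the other. CXCL5 had another order, from untreated through both drugs, indisulam and palbociclib to PF-06873600, also without overlap. CXCL2 and CXCL3 were lowest in untreated cells, with CXCL2 highest with both drugs and CXCL3 highest with indisulam. Over the 10 A549 libraries, which share treatments and the total-count scale, Pearson's r of log2(CPM + 0.5) was 0.983 between CXCL6 and CCL2, 0.951 between CXCL6 and CXCL8, 0.928 between CXCL1 and CXCL2, and only 0.255 between CXCL5 and CCL2. Among all other genes of the A549 model, the 3 most like CCL2 were EPHA10 (r = 0.997), SAMD9L (0.997) and TGFBI (0.996). Those most like CXCL6 were SERPINE2 (0.998), SIPA1L1 (0.996) and ANKRD1 (0.996), and those most like CXCL8 were ELOVL7 (0.997), ITIH5 (0.997) and TP53INP1 (0.995). For CXCL5 they were LRRC8B (0.966), EDN1 (0.961) and AIFM1 (0.96), and for CXCL1 UNKL (0.988), TSPAN14 (0.982) and PXDN (0.981). CXCL2 and CXCL3 had their highest values with BICDL1 (0.959) and DGKD (0.927).

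In SUM159, 9 of 9 tested members were called higher with PF-06873600. Among them, CCL2, CX3CL1 and CXCL5 held 0 or 1 counts in each untreated library. They passed the filter only through the treated group and could only be called higher. CXCL8 went from 19.7 and 18.2 to 340 and 352 CPM, or 18.3-fold (log2 4.19 ± 0.07, edgeR adjusted p = 1.84e-15). CXCL3 went from 1.81 and 2.44 to 65.2 and 62.2 CPM, or 29.9-fold (log2 4.90 ± 0.12, edgeR adjusted p = 7.24e-14). CXCL2 went from 2.83 and 4.07 to 42.3 and 40.8 CPM, a log2 fold change of 3.59 ± 0.13 (edgeR adjusted p = 3.6e-12). For these 3 genes both treated libraries lay above both untreated ones. CXCL1, at 339 and 337 CPM after treatment, ranked 45 among the 15055 genes tested by log2 fold change, CXCL3 ranked 196 and CXCL8 321. CCL5 went from 10.4 and 8.64 to 91.2 and 85.4 CPM, or 9.23-fold (log2 3.21 ± 0.09, edgeR adjusted p = 2.78e-13). CCL20, the ligand of CCR6, went from 1.45 and 1.44 to 7.60 and 8.42 CPM, or 5.54-fold (log2 2.47 ± 0.20, edgeR adjusted p = 3.65e-08).

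A further 4 members rose from 0 or 1 counts in untreated SUM159, where a fitted fold change would rest on the prior count. CCL2 had 0 counts in both untreated libraries and 138 and 185 counts after treatment (8.07 and 8.75 CPM), at least 45.6-fold higher against 3 counts per library. CX3CL1 had 0 and 1 counts before and 303 and 397 after (17.7 and 18.8 CPM), a ratio of 596 with a 95% counting interval of 107 to 23600. CXCL5, the leading member in A549, had 0 and 1 counts before and 17 and 14 after, a ratio of 26.4 with an interval of 4.4 to 1070. It stayed below 1 CPM. CXCL6 had 2 and 4 counts after treatment and none before, too few to be tested. Of all genes, 38.1% were called higher and 35.6% lower, and no member was called lower.

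Markers of other cell types moved in the same SUM159 libraries. The 4 fibroblast markers summed to 1740 to 1840 CPM in untreated and 4250 to 4410 CPM in treated libraries, and 4 of 4 were called higher, DCN from 79.8 ± 2.2 to 851 ± 25 CPM (SD, n = 2) and PDGFRA from 58.2 ± 3.0 to 270.0 ± 3.1 CPM. The 7 leukocyte markers summed to 10.7 to 11.2 CPM in untreated and 27.7 to 30.2 CPM in treated libraries, with 3 of 3 tested called higher, and CD3E was at 0. The 3 endothelial markers summed to 11 to 11.6 and 26.9 to 29.0 CPM, with 2 of 2 tested called higher. Beside these markers, 38.1% of all genes tested in SUM159 were called higher. LUM, ITGAM and CDH5 had means of 0.464, 0.399 and 0 CPM in untreated SUM159. They passed the filter through the treated group, which favours a call of higher for them. In A549 the fibroblast sum was 2.00 to 2.11 CPM in untreated cells, 3.78 to 4.21 with palbociclib, 20.0 to 21.1 with indisulam, 82.3 to 83.7 with both drugs and 8.35 to 10.4 with PF-06873600. The leukocyte sum in A549 was 7.73 to 9.04 CPM in untreated cells, 8.91 to 9.80 with palbociclib, 17.5 to 18.4 with indisulam, 13.7 to 15.2 with both drugs and 14.7 to 15.1 with PF-06873600. Of 4 tested leukocyte markers in A549, 0 were called with palbociclib, 2 were called higher with indisulam, 3 with both drugs and 4 with PF-06873600, and none lower. The shares of all genes called higher were 8.3%, 28.0%, 35.1% and 28.5% in the same order. The endothelial sum ran from 0.536 to 1.60 CPM in A549, and the 1 tested marker, PECAM1, was called lower with indisulam, with both drugs and with PF-06873600. So were 17.5%, 30.0% and 27.8% of all genes. The part of these shifts in the chemokine results was not tested.

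The response to PF-06873600 differed between the lines. The difference could be measured for the 4 members above 3 counts in all 4 groups, and each rose more in SUM159. CXCL1 differed most, by 6.63 ± 0.14 on the log2 scale (edgeR interaction term, adjusted p = 1.37e-16), with 0.88 in A549 and 7.51 in SUM159. CXCL3 differed by 4.55 ± 0.27 (edgeR adjusted p = 4.82e-11) and CXCL2 by 2.60 ± 0.32 (edgeR adjusted p = 1.08e-06). CXCL8 differed least, by 0.71 ± 0.12 (edgeR adjusted p = 5.29e-05), with 3.48 in A549 and 4.19 in SUM159. For the other 6 members at least 1 of the 4 groups held no more than 3 counts in each library, and no size of a difference is given. Of all 10 members, 7 were called higher in SUM159 and none lower, 3 of these 7 with such a group, against 25.8% and 27.2% of 17279 genes.

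The make-up of the chemokine mRNA differed between treatments and lines. In A549 the 10 members together summed to 271.9 ± 24.4 CPM in untreated cells, 561.9 ± 0.7 with palbociclib, 577.4 ± 4.5 with indisulam, 534.4 ± 3.2 with both drugs and 663.5 ± 6.4 with PF-06873600 (SD, n = 2). In SUM159 the sum was 37.4 ± 0.6 CPM in untreated and 912.8 ± 1.7 CPM in treated cells. CXCL5 made up 84.3% and 86.9% of the counts in untreated A549, 86.1% and 85.1% with palbociclib, 78.5% and 79.5% with indisulam, 77.2% in both PF-06873600 libraries, and 57.9% and 59.2% with both drugs. The sum with both drugs lay between the untreated sum and that with either drug alone, while the share of CXCL8 was 17.0% and 16.1% against 2.48% and 2.42% in untreated cells. In treated SUM159, CXCL8 made up 37.3% and 38.5% and CXCL1 37.2% and 36.8% of the counts. Per kilobase of exon, CXCL1 led there at 249 and 247 CPM per kb, before CXCL8 at 131 and 136, CCL5 at 66.9 and 62.6, CXCL2 at 30.2 and 29.2 and CXCL3 at 29.4 and 28.0 CPM per kb, where CXCL2 and CXCL3 overlapped. This order, too, depends on the merged exon lengths.

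**Figure D4:**
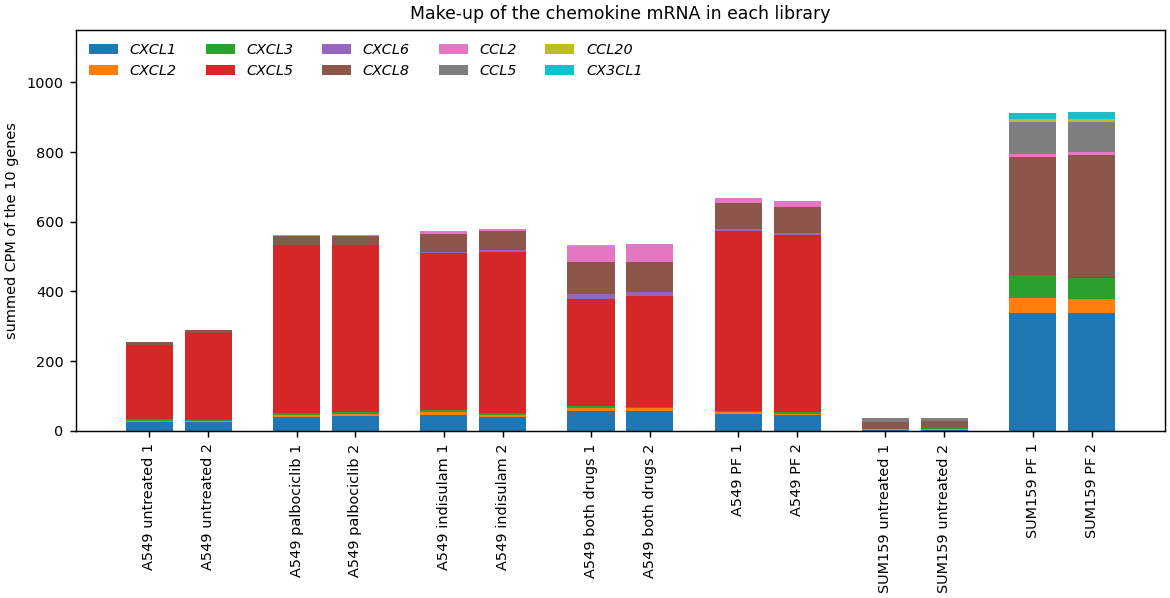
Stacked CPM of the 10 chemokines in each library, grouped by treatment and line, with a bar starting at 0 for each of the 14 libraries. CXCL5 fills most of every A549 bar but less with both drugs, and CXCL8 and CXCL1 fill most of the treated SUM159 bars.

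Most of the receptors named above were at or near 0 in both lines, with CCR1 as the exception. CCR2 and CCR6 had no count in any library. CXCR1 reached at most 0.142 CPM, CX3CR1 0.207 CPM and CXCR2 0.355 CPM in any library. Only 3 of 23 chemokine receptors passed the filter in A549, and all 3 were called higher with both drugs than in untreated cells, as were 35.1% of all genes. These were CXCR4, the receptor of CXCL12, which went from 0.505 ± 0.055 to 10.6 ± 0.8 CPM (SD, n = 2), ACKR3, a scavenger of CXCL12, from 2.63 ± 0.32 to 18.1 ± 0.2 CPM, and CCR1, a receptor of CCL5, from 0.235 ± 0.140 to 5.72 ± 0.54 CPM. CXCR4 and CCR1 passed the filter through treated groups, which favours a call of higher for them. In SUM159, 4 of 4 tested receptors were called higher with PF-06873600 (38.1% of all genes), among them ACKR1, which binds several CXC and CC chemokines without signalling, from 15.7 ± 0.9 to 56.6 ± 0.8 CPM. All 23 receptors summed to 17.1 to 18.7 CPM in untreated SUM159, so that the others tested were low there. They may have passed the filter through the treated group, which would favour a call of higher.

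Of 36 other chemokine genes that were found, 12 had no count in any library, and 6 passed the filter in A549 and 5 in SUM159. With both drugs, 5 of 6 were called higher and none lower in A549 (35.1% and 30.0% of all genes), among them CCL26, an eosinophil attractant, from 0.134 ± 0.093 to 7.30 ± 0.50 CPM, and CXCL16 from 7.97 ± 0.70 to 17.2 ± 2.6 CPM (SD, n = 2). CCL26 passed the filter through treated groups, which favours a call of higher for it. Palbociclib raised 2 of 6, indisulam 4 of 6 and PF-06873600 4 of 6, with none lower, beside 8.3%, 28.0% and 28.5% of all genes called higher. In SUM159, 5 of 5 were called higher (38.1% of all genes), with CXCL12 going from 13.4 ± 0.5 to 62.6 ± 2.3 CPM and CXCL11, a ligand of CXCR3, from 0.988 ± 0.374 to 7.32 ± 0.02 CPM. All 36 summed to 18.2 to 19.0 CPM in untreated SUM159, so that some of the 5 may have passed the filter through the treated group.

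Genes of chemokine induction were counted from a list of 27. It holds cytokines, the receptors IL1R1 and TNFRSF1A, and transcription factors, among them those of the NF-κB and AP-1 pathways. It also holds inhibitors of NF-κB such as NFKBIA, TNFAIP3 and TNIP1, so that a call of higher is not always a rise of an inducer. In A549, 24 were tested, and 9 were called higher and 1 lower with palbociclib, 19 and 0 with indisulam, 18 and 1 with both drugs, and 14 and 4 with PF-06873600. The shares of all genes called higher and lower were 8.3% and 7.4% with palbociclib, 28.0% and 17.5% with indisulam, 35.1% and 30.0% with both drugs, and 28.5% and 27.8% with PF-06873600. The median log2 fold change of the tested genes was 0.84 with both drugs, beside 0.05 for all genes. JUN, a subunit of AP-1, went from 6.83 ± 0.43 CPM in untreated cells to 15.0 ± 1.8 with palbociclib, 39.5 ± 1.3 with indisulam, 121 ± 7 with both drugs and 84.0 ± 2.3 with PF-06873600 (SD, n = 2). IL6 went from 0.539 ± 0.007 to 7.25 ± 0.22 CPM with both drugs (log2 3.73 ± 0.26 SE, edgeR adjusted p = 1.32e-08) and IL1B from 0.539 ± 0.007 to 5.53 ± 0.00 CPM. IL6 and IL1B passed the filter through treated groups, which favours a call of higher for them. TNFAIP3, an NF-κB target that dampens the pathway, was at 16.8 ± 0.2 CPM with both drugs and 1.80 ± 0.13 CPM with palbociclib. Beyond the sum of the single effects, 7 of the 24 were called higher and 3 lower, beside 10.7% and 14.5% of all genes. TNFAIP3 exceeded it by 1.12 ± 0.25, as did ATF3 by 2.19 ± 0.16 and NFKB2 by 0.88 ± 0.14 (log2, edgeR adjusted p = 0.00402, 1.84e-07 and 0.000336). IL17A had no count in any library, and TNF reached at most 0.236 CPM.

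In SUM159, 25 genes of this list, inhibitors included, were tested. With PF-06873600, 17 were called higher and 4 lower (38.1% and 35.6% of all genes), with a median log2 fold change of 0.79 beside 0.02 for all genes. IL1B went from 0.369 ± 0.010 to 23.9 ± 0.6 CPM, IL6 from 1.59 ± 0.57 to 49.5 ± 1.6 CPM and IL1A from 0.827 ± 0.195 to 14.9 ± 0.7 CPM (SD, n = 2). IL1B passed the filter through the treated group, which favours a call of higher for it. Before treatment, FOSL1, JUN and TNFAIP3 were already higher in SUM159 than in A549, FOSL1 at 205 ± 15 against 8.17 ± 0.79 CPM.

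**Figure D5:**
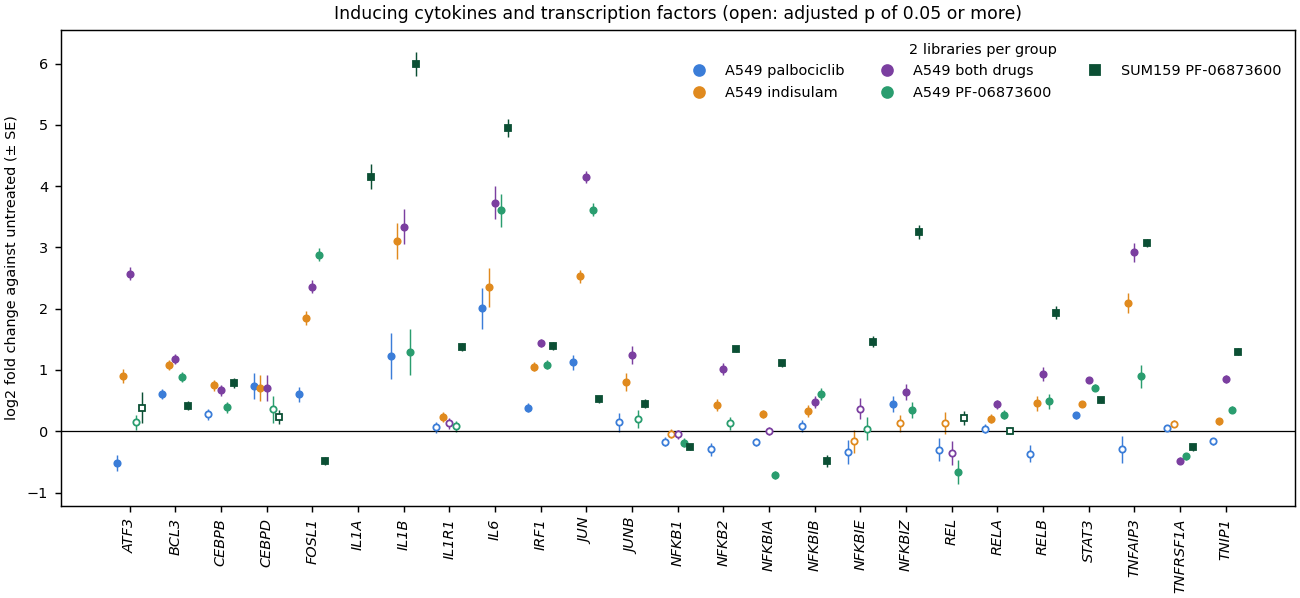
Log2 fold change against untreated cells of the same line, with the standard error, for the tested genes of chemokine induction, NF-κB inhibitors included. Circles are 4 A549 comparisons, squares SUM159 with PF-06873600, and open symbols did not pass the test. IL1B at 5.99 and IL6 at 4.95 are the highest SUM159 values, and JUN at 4.15 is the highest A549 value.

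Factors of mRNA decay and stability, most of which bind AU-rich mRNAs, a feature of several chemokine messages, moved in both directions. Of 8 genes tested in A549, 3 were called higher and 2 lower with both drugs (35.1% and 30.0% of all genes), with a median log2 fold change of 0.04 beside 0.05 for all genes. With PF-06873600, 3 were called higher and 4 lower in A549 (28.5% and 27.8% of all genes), and 1 higher and 5 lower in SUM159 (38.1% and 35.6%). The 1 higher gene in SUM159 was ZC3H12A, an RNase of inflammatory mRNAs, from 11.4 ± 1.1 to 132 ± 3 CPM, and the lower genes included HNRNPD from 507 ± 15 to 115 ± 2 CPM and KHSRP from 437 ± 22 to 202.0 ± 0.1 CPM (SD, n = 2). Of 7 proteases that cleave chemokines, 5 were tested in A549, with 3 called higher and 2 lower with both drugs (35.1% and 30.0% of all genes), and 6 in SUM159, all called higher (38.1% of all genes). DPP4, which clips the N-terminus of several chemokines, fell in A549 from 49.4 ± 0.5 to 16.3 ± 0.1 CPM with both drugs and to 13.6 ± 1.6 CPM with PF-06873600, but rose in SUM159 from 3.69 ± 0.27 to 62.9 ± 2.7 CPM. ADAM17, which releases CX3CL1 from the cell surface, fell from 81.0 ± 5.4 to 61.9 ± 2.2 CPM with both drugs in A549. MMP2, which cleaves CCL7 and CXCL12, rose in A549 from 127 ± 5 to 356 ± 1 CPM with both drugs and in SUM159 from 518 ± 40 to 1470 ± 8 CPM with PF-06873600.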

How the data were processed

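Counts of reads per gene were measured in 14 poly(A) RNA libraries of 7 groups, taken from the sample labels. The authors sequenced stranded single-end 65-base reads, aligned them to hg38 and deposited raw read counts per gene. Per the labels' processing notes, HISAT2 2.2.1, HTSeq and GRCh38 were used. The annotation release and strand setting are not given in the sources used here. The 9 summary lines of each file stayed out of totals, and reads of low mapping quality, 8.59% to 10.85% of listed reads, had already been set aside, which lowers counts of genes that share sequence. Symbols of 60370 of 60683 identifiers, positions and exon lengths came from GENCODE release 44.

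CPM and fits used the total gene count, after the relative total size factor of the study. Genes passing filterByExpr were fitted with edgeR 4.0.16 (quasi-likelihood F test, R 4.3.3) and p-values adjusted by Benjamini-Hochberg over all genes tested, with a threshold of 0.05. The models held the 10 A549 libraries (15780 genes), the 4 SUM159 libraries (15055) or all 14 (17279), and gave 10 comparisons with interaction terms for the combination and for the lines. Standard errors are |log2 fold change| over the root of F. Where a group held 3 counts or fewer in each library, a bound against 3 counts or a ratio with an exact 95% conditional interval is given. In a bound, 3 counts per library stand for 0. Reads carry no molecular identifiers, so intervals cover counting error only. Sums and SDs are over libraries.

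The members and lists were chosen with earlier results of these data known. All 10 members are named. From each list, at most 3 called genes per comparison are named, those with the largest change whose higher group reached 5 CPM, and per member the 3 most correlated genes. A few genes near or at 0, the marker genes and the levels of TNF, IL17A and the members' receptors were added after the values were seen. Repeated 65-base stretches were counted in the hg38 sequence. Promoters came from RefSeq. The scripts were tested on simulated data. Alternatives were TMM factors, DESeq2 1.42.0, omitting the low-count filter, requiring a mean of 50 counts, fitting the compared groups alone, the replicate number as a block, leaving out each library, and crossed replicate numbers chosen after the data were seen. Tables and figures were made with pandas 2.3.3, scipy 1.17.1, numpy 2.4.6 and matplotlib 3.10.9 in Python 3.11.15. Values of 2 list genes are not reported here.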

Additional observations from a re-analysis of the deposited data

Results flagged for a closer look

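The response to PF-06873600, as a log2 fold change against untreated cells, differed between SUM159 and A549 in an interaction term of the edgeR model of both lines. For the chemokines, SUM159 minus A549 was 6.63 for CXCL1, 4.55 for CXCL3, 2.60 for CXCL2 and 0.71 for CXCL8. Among cytokines and transcription factors that induce chemokines, the difference was 4.69 for IL1B, -3.37 for FOSL1 and -3.09 for JUN. FOSL1 rose in A549 by 2.88 and fell by 0.49 in SUM159, and JUN rose in both, by 3.62 and 0.52. Among factors of mRNA decay it was 3.31 for ZC3H12A, -1.65 for HNRNPD and -1.30 for KHSRP. Among proteases it was 5.96 for DPP4, which changed by -1.87 in A549 and 4.09 in SUM159. It was 1.09 for ADAM17, which changed by -0.39 and 0.70, and 0.45 for MMP2. CXCL16 differed by 0.62, with an adjusted p of 0.0425. These 14 differences were picked from those that passed the edgeR test at an adjusted p under 0.05, so that their passing is no separate result. Of 17279 genes tested, 25.8% were called higher and 27.2% lower in SUM159 by the same term. With 2 libraries per group, no outlier test of single libraries was possible.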

How the results depend on the processing

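Of 63 member results with a test, 50 kept their direction and their side of the threshold in each alternative. Over 1001 alternative values, 955 did so, 38 lost the call, 5 gained it and 3 changed sign. The 3 sign changes were in results that did not pass the test. With a library left out, CXCL3 in the combination against palbociclib ran from -0.17 to 0.12 and was positive without palbociclib replicate 2 or combination replicate 2 (0.08). CXCL6 beyond the sum ran from -0.70 to 0.24 and was positive without untreated replicate 1. Beyond the sum, 5 members were called, 3 with DESeq2 and 2 to 5 with a library left out. Palbociclib against untreated cells gave 2478 called genes, 1511 with DESeq2, 949 with only the compared groups and 1301 to 3331 with a library left out. The other counts of genes and of members stayed within 1.5 times. The cause was not tested. The labels give the replicate numbers 1 and 2 in every group without naming a shared batch. With the number as a block, the members called were 6 with palbociclib, 7 with indisulam and 7 with both drugs, and no call of a member changed. Same-numbered deviations from the group means correlated at -0.31 across genes for palbociclib and untreated A549 and at -0.26 for the untreated lines. With the numbers crossed, 3023 and 13575 genes were called, against 2337 and 13523 with the block as labelled. Depth limits CCL5, CCL20 and CX3CL1 in A549 and CXCL5 and CXCL6 in SUM159.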
